A study of Mus musculus with 32 samples.

Results

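In the open chromatin of mouse haematopoietic stem and progenitor cells (HSPCs), 324 genes each had 6 or more open regions linked to them, and these dense clusters held 2329 of the 23554 regions tested. The members were chosen from the measured peaks themselves. From each of 16 ATAC-seq peak lists the strongest autosomal peaks by -log10 p were kept, to a common number just under the length of the shortest list (19448 peaks). Merging overlaps gave 31846 regions, and those found in 3 lists or more entered the tests. Each was assigned to the closest protein-coding gene of the mouse build GRCm38 that lay within 50 kb, which gave 22118 linked regions at 12344 genes. The clusters are the genes with 6 or more, 2.62% of the linked genes. The assignment rests on distance, so a region may act on another gene than the one named. Because presence in these lists chose the members, the number of regions per gene and the peak values that made it are given as a description.

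The cells were wild-type donor HSPCs, sorted as lineage-negative, cKit-positive and Sca1-positive marrow cells of genotype C57BL/6J (CD45.1+/2+), from mice with a mixed transplant. AF9-experienced mice were lethally irradiated C57BL/6J (CD45.2) recipients of 200000 marrow cells (CD45.1) homozygous for the doxycycline-inducible hMLL-AF9 fusion and for its inducer rtTA, given with 800000 wild-type marrow cells. Naive mice received 200000 cells homozygous for rtTA without hMLL-AF9 in their place, with the same 800000 wild-type cells. After 6 to 8 weeks all mice were given doxycycline for 5 weeks, which starts leukaemia where the fusion is present, and it was withdrawn for 4 weeks, which gives remission. They then received LPS, a bacterial lipopolysaccharide sensed by Toll-like receptor 4, or PBS, and were killed 24 hours later. The LPS dose is not given in the sources used here. There were 5 AF9-experienced LPS, 4 AF9-experienced PBS, 3 naive LPS and 4 naive PBS replicates, each labelled as a biological replicate with 2 technical libraries and represented by 1 peak list. The sorted cells themselves never carried the fusion, and every group had been transplanted and given doxycycline.

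ATAC-seq finds DNA that a transposase can reach, mostly promoters and enhancers. A gene whose neighbourhood holds many open regions often has several enhancers, and groups of closely spaced enhancers near genes of cell identity are known as super-enhancers. In blood stem cells such arrays are known at transcription factor genes such as Runx1. Enhancers are in general more specific to a cell state than promoters are. The value used here is the percentile rank of a region's strongest peak within a replicate's shortened list. It is 100 for the strongest peak and 0 where the shortened list has no peak in the region. A 0 is therefore a weak peak or no peak, and a difference is in percentile points of rank, not in an amount of open chromatin.

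The promoter sequences below are shown because they belong to clusters that the results turn on. Slc16a10, Ptpn3, Cd9 and Cdk6 are clusters whose mean rank was higher after LPS, and Runx1 has a proximal and a distal promoter inside 1 cluster. Each is a 300-base window from 250 bases before to 50 bases after a RefSeq start of the gene (GRCm38.p6), written on the gene's strand. Such a start need not be the 5′ end of the gene model. That of Ptpn3 lies inside the model, and the Ptpn3 cluster held no gene-end region. Capitals mark the letters searched on both strands: CCGGAAG (ETS), TGTGGT (RUNX), TGANTCA (AP-1), GGANTTTCC (NF-kB) and GGGCGG (GC box). None of these letter patterns is part of another.
Slc16a10, chr10:40142205-40142504, minus strand, peak in 16 of 16 lists: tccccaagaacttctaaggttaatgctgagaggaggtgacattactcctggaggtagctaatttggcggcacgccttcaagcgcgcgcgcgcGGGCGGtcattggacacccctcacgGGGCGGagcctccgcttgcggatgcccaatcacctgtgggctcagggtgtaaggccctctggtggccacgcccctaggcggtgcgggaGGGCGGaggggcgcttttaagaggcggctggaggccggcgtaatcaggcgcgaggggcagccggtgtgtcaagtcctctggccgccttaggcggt
Ptpn3, chr4:57301788-57302087, minus strand, peak in 14 lists: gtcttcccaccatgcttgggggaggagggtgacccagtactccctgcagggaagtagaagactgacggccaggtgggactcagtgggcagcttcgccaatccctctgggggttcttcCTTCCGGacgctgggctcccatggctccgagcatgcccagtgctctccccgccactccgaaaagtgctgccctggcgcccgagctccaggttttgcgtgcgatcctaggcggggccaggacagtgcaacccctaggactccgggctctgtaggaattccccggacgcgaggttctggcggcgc
Cd9, chr6:125494711-125495010, minus strand, peak in 13 lists: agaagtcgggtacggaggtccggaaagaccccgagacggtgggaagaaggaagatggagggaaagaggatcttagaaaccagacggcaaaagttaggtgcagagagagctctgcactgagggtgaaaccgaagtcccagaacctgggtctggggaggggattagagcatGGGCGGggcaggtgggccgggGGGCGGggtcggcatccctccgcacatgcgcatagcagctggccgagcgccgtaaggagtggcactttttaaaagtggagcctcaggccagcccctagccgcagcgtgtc
Cdk6, chr5:3343643-3343942, plus strand, peak in 16 lists: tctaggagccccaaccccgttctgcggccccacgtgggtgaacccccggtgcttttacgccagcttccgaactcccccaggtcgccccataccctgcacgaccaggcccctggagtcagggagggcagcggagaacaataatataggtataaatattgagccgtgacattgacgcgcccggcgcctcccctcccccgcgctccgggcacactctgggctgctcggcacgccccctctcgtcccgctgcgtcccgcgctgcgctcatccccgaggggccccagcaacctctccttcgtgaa
Runx1 proximal, chr16:92697280-92697579, minus strand, peak in 16 lists: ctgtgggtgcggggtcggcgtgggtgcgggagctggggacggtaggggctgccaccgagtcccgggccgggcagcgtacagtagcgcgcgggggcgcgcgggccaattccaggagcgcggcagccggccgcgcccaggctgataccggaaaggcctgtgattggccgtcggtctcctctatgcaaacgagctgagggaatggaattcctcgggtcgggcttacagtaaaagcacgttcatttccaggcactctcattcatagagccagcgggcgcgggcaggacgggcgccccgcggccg
Runx1 distal, chr16:92826025-92826324, minus strand, peak in 4 lists: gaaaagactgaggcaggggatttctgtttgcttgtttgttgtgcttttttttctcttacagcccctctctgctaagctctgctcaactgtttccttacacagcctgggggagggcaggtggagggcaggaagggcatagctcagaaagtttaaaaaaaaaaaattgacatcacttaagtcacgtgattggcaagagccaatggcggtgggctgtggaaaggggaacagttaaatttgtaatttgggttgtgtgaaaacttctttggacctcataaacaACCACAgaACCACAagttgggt
The Slc16a10 window held 26 CpG and 3 GC boxes, and the Cd9 window held 18 CpG and 2 GC boxes. The Ptpn3 window held 1 ETS pattern, on the opposite strand. The Cdk6 window and the proximal Runx1 window held none of the patterns, with 27 and 35 CpG. The distal Runx1 window held 2 RUNX patterns on the opposite strand and 2 CpG.

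Promoter windows were found for 266 of the 324 cluster genes, and 228 had a window under a tested region, 301 windows in all. The median window of these held 25 CpG, against 22 over all 11795 windows of any gene under a tested region and 7 over all 31396 autosomal windows. GC boxes were in 70.8% of the cluster windows, against 67.4% of all windows under a region and 36.0% of all windows. The ETS pattern was in 8.31% of the cluster windows, against 19% of all windows under a region and 9% of all windows. RUNX was in 10.3%, against 12% and 16.7%, and AP-1 in 5.32%, against 4.32% and 7.84%. The NF-kB pattern was in 2 cluster windows, 0.664%, against 1.12% and 1.26%. The cluster windows are part of the windows they are set beside, and a match is a run of letters, not a bound factor.

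The clusters ran from 6 regions, held by 156 genes, to 22 regions at Gse1, whose product is a coiled-coil protein found with histone demethylase complexes. Pde4d, a phosphodiesterase that breaks down cyclic AMP, had 20. Between these sizes, 78 genes had 7 regions, 41 had 8, 16 had 9, 18 had 10, 7 had 11, 2 had 12 and 4 had 13. Just outside the rule, 278 genes had 5. Of the genes just inside it, the mean percentile over regions and replicates was 31.3 at Abcb9, 36.7 at Abcc4 and 19.3 at Ablim1. Of those just outside it, it was 55.9 at 3110082I17Rik, 40.2 at Abhd2 and 21.8 at Acoxl. The genes just outside the rule were not all weaker than those just inside it.

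**Figure D1:**
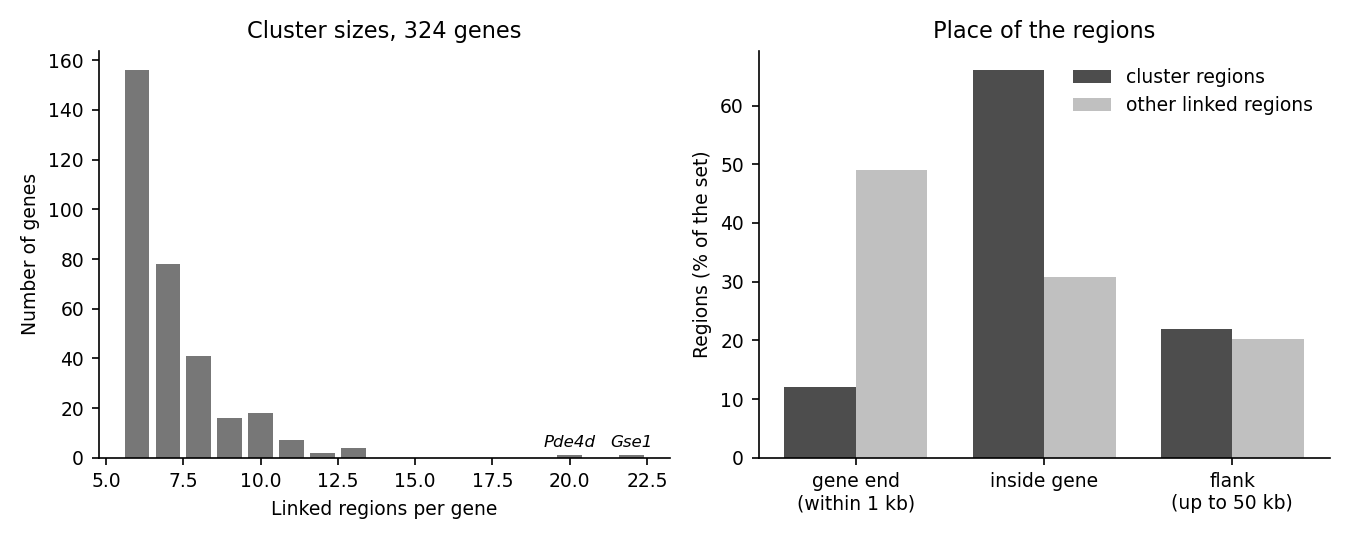
Left, number of genes by number of linked regions, from 6 to 22. Right, share of regions at a gene end, inside a gene or in its flank, in percent of the 2329 cluster regions (dark) and of the 19789 other linked regions (light); cluster regions were mostly inside genes (66.0%).

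Cluster regions lay mostly inside genes. Inside the gene model lay 66.0% of cluster regions, against 30.7% of the other 19789 linked regions. Within 1 kb of a gene end lay 12.1%, against 49.0%, and in the flank 21.9%, against 20.3%. Since a gene has 2 ends, a gene with 6 or more regions must hold most of them elsewhere, so this split follows in part from the rule. Cluster genes were long, with a median of 125620 bp against 24023 bp for the other linked genes. Among linked genes under 20 kb, 0.302% held a cluster, against 1.01% at 20 to 50 kb, 3.46% at 50 to 100 kb, 10.3% at 100 to 200 kb and 15.3% at 200 kb or more.

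Not all clusters followed a long gene body. In 34 clusters more regions lay in the flank than in or at the gene, and the median gene length there was 26091 bp. Fos and Fosb, immediate early genes of the AP-1 transcription factor, are examples, with 5 of 6 and 5 of 7 regions in the flank. Spans ran from 20.3 kb at Fosb to 1280 kb at Pde4d, with a median of 126 kb, and the median spacing within a cluster was 14.1 kb. Inside regions were spread along the gene. When each gene was cut into 4 equal parts from the 5′ end, the parts held 24.4%, 29.7%, 23.5% and 22.4% of them in the 266 clusters with a known strand.

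Most cluster regions were weaker than the median gene-end region and were not shared by every replicate. A peak was present in all 16 shortened lists in 32.6% of cluster regions, against 49.9% of the other linked regions. Among regions inside genes alone these shares were 29.3% and 29.1%. In the full lists, which hold 19448 to 88816 peaks, 46.4% of cluster regions had a peak in every replicate, against 61.5% of the others. The median of the mean percentile was 51.4 for gene-end regions of clusters and 66.5 for other gene ends. For regions inside genes it was 19.2, against 18, and in the flank 17.5, against 16.5. Each cluster mixed strong and weak regions. The strongest region exceeded the weakest by a median of 65.4 percentile points, and no cluster had all of its regions in all lists, while 20 clusters had none in all lists. Of the 255 clusters with a gene-end region, that region was the strongest in 120.

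Runx1, a transcription factor needed for blood stem cells to form, shows this mixture within 9 regions over 254 kb. Its region 24.6 kb inside the gene (chr16:92800712-92802215) averaged 75.5 in AF9-experienced LPS, 79.8 in AF9-experienced PBS, 78.8 in naive LPS and 78.3 in naive PBS mice. The proximal promoter region (chr16:92696712-92699038) was of middle strength in all groups, at 50.5, 41.4, 51.5 and 46.6 in the same order of groups. The distal promoter region (chr16:92825508-92826514) had a peak in only 4 shortened lists, with means of 0, 8.4, 5.9 and 13.8. No Runx1 region passed the test after LPS in either background. The region 110 kb inside the gene (chr16:92715380-92716352) averaged 42.2 ± 6.82 in AF9-experienced LPS, against 10.6 ± 14.8 in AF9-experienced PBS (SD, adjusted p = 0.0581, limma). In naive mice it averaged 52.1 ± 4.45 after LPS, against 15.5 ± 24.7 after PBS (SD, adjusted p = 0.0714, limma).

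The replicates differed in list length and quality. The -log10 p at which the lists were shortened ran from 3.89 to 130, and the median fold enrichment of the shortened lists from 5.07 to 19.4. Both followed treatment. Median fold was 6.58 to 13.6 in LPS lists of both backgrounds. In PBS lists it was 13.9 to 19.4, apart from 5.34 in AF9-experienced PBS 1 and 5.07 in naive PBS 1. With the same exceptions, the cut lay at 9.67 to 42.8 in LPS and at 51.6 to 130 in PBS lists. Signal strength of a list and LPS can therefore hardly be told apart. The shortest lists were AF9-experienced PBS 1, naive LPS 3 and naive PBS 1. A peak was present in 73.5% ± 1.33 of cluster regions in AF9-experienced LPS, 69.8% ± 5.6 in AF9-experienced PBS, 70.6% ± 4.52 in naive LPS and 67.1% ± 8.38 in naive PBS mice (SD). Of 10 HSPC marker genes, 7 had a tested gene-end region, 6 of them with a peak in all lists. Such a region was present for 3 of 5 erythroid, 3 of 6 endothelial and stromal, 1 of 10 granulocyte and monocyte, 1 of 6 T and NK and 0 of 6 B lymphocyte markers. Peaks on chromosome Y numbered 0 to 3 in AF9-experienced LPS, 0 in AF9-experienced PBS, 2 in every naive LPS and 0 to 1 in naive PBS replicates. In a bulk sample, fewer cells of a type with open DNA and less opening per cell cannot be told apart.

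Whether LPS changed the clusters was asked by comparing LPS with PBS within each background. In AF9-experienced mice 191 of the 2329 cluster regions passed the test, 138 higher and 53 lower after LPS. That is 8.2% of them, beside 5.18% of all tested regions, 3.44% higher and 1.74% lower (limma across all regions, Benjamini-Hochberg adjusted p under 0.05). Among regions that are not gene ends the shares were 9.08% in clusters and 7.7% of all. The median difference was 32.3 percentile points in those called higher and -29.6 in those called lower. Over all cluster regions it was 0.745, and over all tested regions -0.179. A region needed a peak in only 3 lists, so a region with peaks mainly in 1 group entered through that group, as did the regions it is set beside. Of the 138 called higher, 38 had no peak in any shortened PBS list of either background, and of the 53 called lower 8 had none in any shortened LPS list of either.

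In naive mice 123 cluster regions passed, 78 higher and 45 lower after LPS, which is 5.28%, beside 3.22% of all tested regions, 2% higher and 1.22% lower. Away from gene ends the shares were 5.86% and 4.83%. The median difference was 36.5 in those called higher and -35.6 in those called lower. Of the 78 called higher, 24 had no peak in any shortened PBS list of either background, and of the 45 called lower 3 had none in any shortened LPS list of either. Both counts turned on the ranking of peaks. With peaks of the same lists ranked by fold enrichment the counts were 98 in AF9-experienced and 36 in naive mice, with lists chosen by fold 62 (53 higher and 9 lower) and 0, and with presence alone in the full lists 0 and 0. Without the 3 shortest lists they were 318 (195 higher and 123 lower) and 221.

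Single replicates moved the counts further. The AF9-experienced count was 118, 106 and 104 without AF9-experienced PBS 2, 3 or 4. The naive count was 80 and 54 without naive LPS 1 or 2, and 71 and 62 without naive PBS 2 or 3. It was 188 (96 higher and 92 lower) without naive PBS 1, the shortest list. With the number of Y peaks as a covariate the naive count was 38, 32 higher and 6 lower, and the AF9-experienced count 191. Naive LPS replicates each had 2 Y peaks and naive PBS replicates 0 to 1, so Y peaks and LPS can hardly be told apart in naive mice. The part that Y peaks, list length and median fold have in these counts was not tested further.

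Gene ends were seldom called. In AF9-experienced mice 5 of 281 gene-end regions of clusters passed (1.78%, against 1.75% of other linked gene ends). Inside genes 9.56% passed, against 7.53%, and in the flank 7.65%, against 7.17%. In naive mice 3 gene-end regions passed (1.07%, against 1.02%), with 6.11% inside genes, against 4.5%, and 5.1% in the flank, against 4.63%. The difference between clusters and other regions of the same place was not tested. Among those that passed was the gene start of Fosb (chr7:19309979-19310612). It had 59.5, 59.3, 72.3, 67.3 and 64.8 in AF9-experienced LPS replicates, against 42.5, 44.7, 54.4 and 47.7 in AF9-experienced PBS replicates (difference 17.30, SE 5.02, adjusted p = 0.0474, limma). That call ended when any of 12 replicates was left out, with adjusted p up to 0.122.

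**Figure D2:**
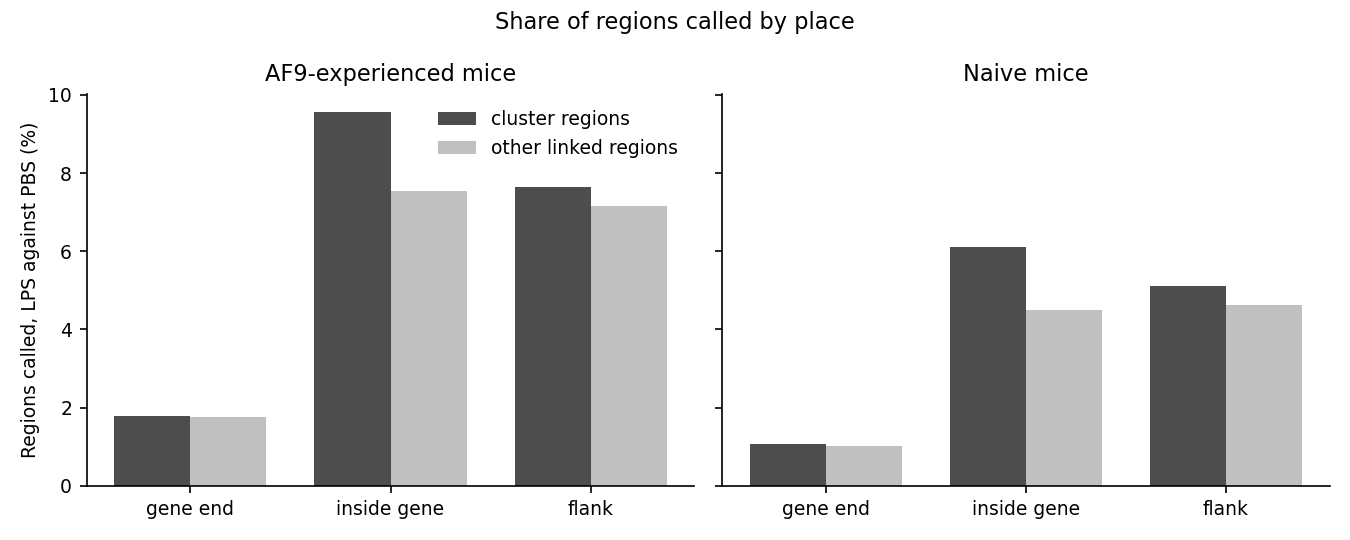
Share of regions called for LPS against PBS, in percent, by place (gene end, inside gene, flank), for cluster regions (dark) and other linked regions (light). Left AF9-experienced mice, right naive mice. Gene ends were called in 1.02% to 1.78%, regions inside genes and in flanks in 4.5% to 9.56%.

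Every called region had a peak in at least 1 full list of the group in which it was lower. Of the 138 called higher in AF9-experienced mice, 56 had no peak in any shortened AF9-experienced PBS list. In the full lists of that group, 70 had a peak in every list and 0 had none in all of them. Of the 53 called lower, 12 had no peak in any shortened AF9-experienced LPS list, and 53 had a peak in every full list of that group. In naive mice 33 of 78 called higher had no peak in any shortened naive PBS list. In the full naive PBS lists, 17 had one in every list, and 0 were without a peak in all of them. Of the 45 called lower, 14 had no peak in any shortened naive LPS list, 39 had one in every full naive LPS list, and 0 had none.

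Most clusters with a called region had only 1. At least 1 called region was present in 143 clusters in AF9-experienced mice, of which 104 had exactly 1. In naive mice 104 clusters had a called region, and 88 of them exactly 1. These counts have no share over all linked genes beside them. They depend on the number of regions per cluster and on the share of cluster regions called (8.2% and 5.28%), so they are a description. Called regions in both directions were present in 13 clusters in AF9-experienced and 7 in naive mice. Of clusters with 2 or more called regions, 22 had all higher and 4 all lower in AF9-experienced mice. In naive mice these numbers were 8 and 1. Among pairs of called regions in 1 cluster, 42 of 58 had the same direction in AF9-experienced and 15 of 22 in naive mice. Regions called higher outnumbered those called lower, 138 to 53 and 78 to 45. That alone makes like directions more frequent, and no expected share was computed. The SD of the LPS differences over the regions of a cluster had a median of 12.4 in AF9-experienced and 13.1 in naive mice. Over all cluster regions that SD was 14.2 and 14.4. Regions within a cluster were therefore spread nearly as widely as cluster regions in general. Neighbouring regions of a cluster lay a median of 14.7 kb apart. Called in the same direction were 14 of 2005 neighbouring pairs in AF9-experienced mice, a median of 8.41 kb apart, and 6 pairs in naive mice, 10.1 kb apart.

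At the level of the whole cluster, taken as the mean percentile of its regions, LPS moved few genes. In AF9-experienced mice 12 of 324 clusters passed, which is 3.70%, beside 3.52% of all linked genes, 2.26% higher and 1.26% lower. Higher were Slc16a10, Ptpn3, Lipc, Cd9, Cdk6, Rubcnl, Sema4d, Syne3, Chst11 and Katnal1, and lower were Nfia and Ttc28. In naive mice 2 passed, Slc16a10 higher and Nfatc2 lower, which is 0.617%, beside 1.93% of all linked genes, 1.14% higher and 0.786% lower. With peaks of the same lists ranked by fold enrichment, Nfia, Ttc28 and Rubcnl of these were still called in AF9-experienced mice (adjusted p up to 0.0397) and neither in naive mice. A mean over 6 or more regions, most of them uncalled, is a different quantity from that of a gene with 1 linked region. Of genes with 1 linked region, 2.57% passed in AF9-experienced and 1.58% in naive mice. Of genes with 3, 4 and 5, the shares were 5.38%, 5.02% and 5.76% in AF9-experienced mice. In naive mice they were 2.33%, 1.67% and 2.88%. The clusters were thus called less often than genes with slightly fewer regions, a difference that was not tested.

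Slc16a10, a transporter of aromatic amino acids, was the cluster called in both backgrounds. Its cluster mean was 40.2, 41.5, 34.6, 42.2 and 32.8 in AF9-experienced LPS replicates, against 19.7, 18.3, 21.8 and 20.4 in AF9-experienced PBS replicates (difference 18.21, SE 3.29, adjusted p = 0.00619, limma). In naive mice it was 48.2, 36.2 and 34.4 after LPS, against 21.0, 19.6, 19.8 and 23.4 after PBS (difference 18.69, SE 3.75, adjusted p = 0.0162, limma). All LPS values exceeded all PBS values in both backgrounds. The naive call ended without naive LPS 1 (adjusted p = 0.0863) or naive PBS 3 (0.0521), and also with Y peaks as a covariate (0.160) or with only the groups compared (0.138). The AF9-experienced call remained without any single replicate. With peaks ranked by fold enrichment neither was called (adjusted p = 0.288 in AF9-experienced and 0.310 in naive mice).

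The called regions of Slc16a10 lay inside the gene, 10.4, 13.6 and 16.9 kb from its 5′ end in AF9-experienced mice, and 10.4 and 16.9 kb in naive mice. The call at 13.6 kb ended without AF9-experienced LPS 4 or PBS 2, 3 or 4 (adjusted p up to 0.0811), and the naive call at 10.4 kb without naive LPS 1 (0.0586). With peaks ranked by fold enrichment the region at 16.9 kb was still called in both backgrounds (adjusted p = 0.00903 in AF9-experienced and 0.0473 in naive mice), and the others were not (lowest adjusted p = 0.0642). The farthest (chr10:40125198-40125572) had 67.0, 56.5, 33.1, 51.1 and 42.5 in AF9-experienced LPS replicates and 0 in all 4 AF9-experienced PBS replicates (difference 50.04, SE 7.39, adjusted p = 0.000292, limma). Naive replicates had 60.3, 54.7 and 46.2 after LPS, against 0, 0, 0 and 11.3 after PBS (difference 50.93, SE 8.42, adjusted p = 0.00174, limma). It was outside the shortened list in nearly all PBS replicates and in the middle of the ranking after LPS. In the full lists it had a peak in 5 of 5 AF9-experienced LPS, 3 of 4 AF9-experienced PBS, 3 of 3 naive LPS and 3 of 4 naive PBS replicates. The promoter region, whose sequence is shown above, was called in neither background. It averaged 87.4 ± 3.65 in AF9-experienced LPS, against 87.5 ± 3.83 in AF9-experienced PBS mice, and 88.7 ± 5.27 in naive LPS, against 92.8 ± 0.844 in naive PBS mice (SD).

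**Figure D3:**
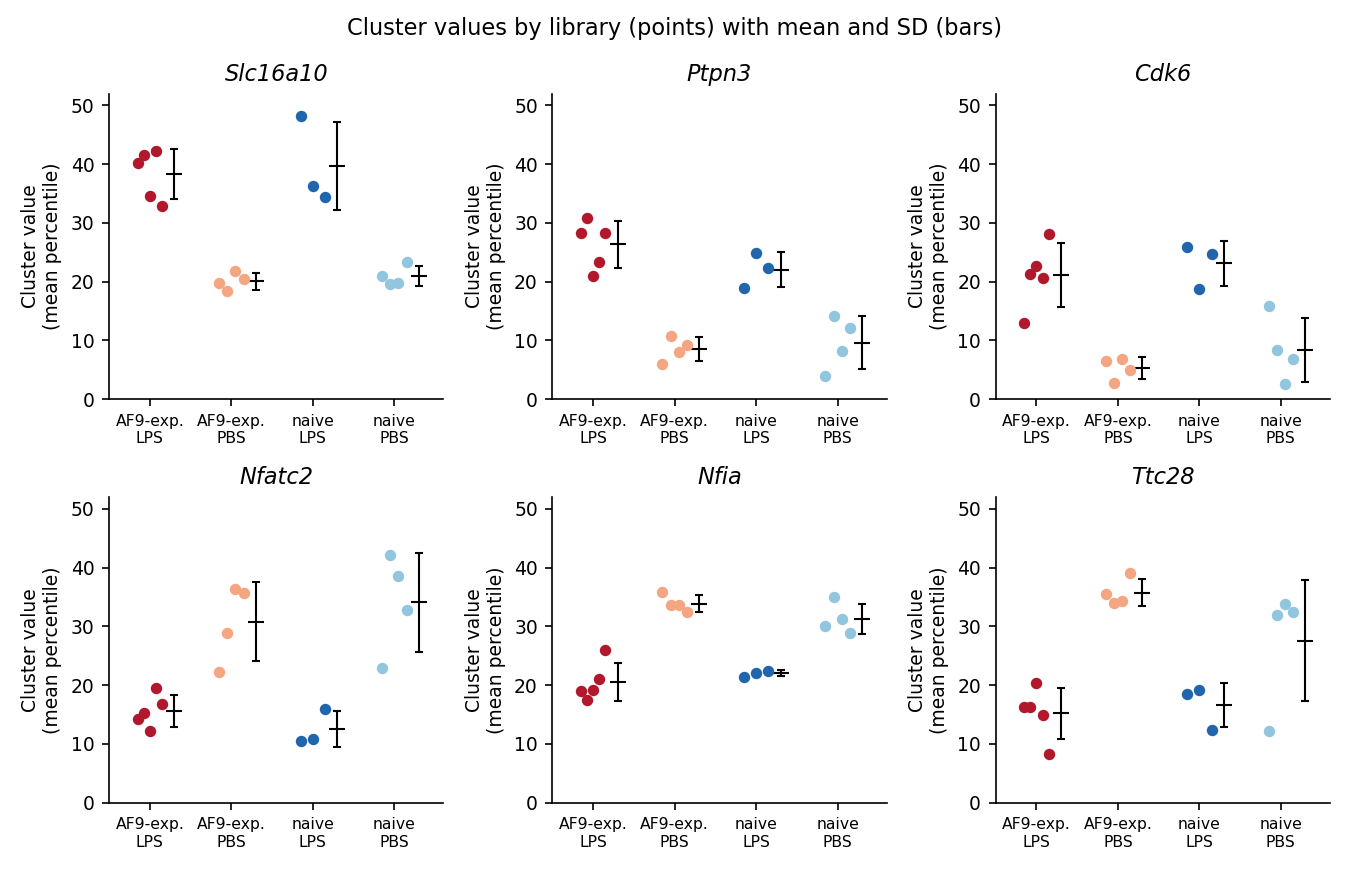
Mean percentile over the regions of 6 clusters, per replicate (points), with group mean and SD (bars), in AF9-experienced LPS, AF9-experienced PBS, naive LPS and naive PBS mice. Slc16a10, Ptpn3 and Cdk6 were higher after LPS, for example 38.3 against 20.1 at Slc16a10 in AF9-experienced mice, and Nfatc2, Nfia and Ttc28 lower.

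Ptpn3, a protein tyrosine phosphatase of the cell cortex, had a cluster mean of 28.2, 30.9, 21.0, 23.4 and 28.2 in AF9-experienced LPS replicates, against 5.95, 10.8, 8.03 and 9.22 in AF9-experienced PBS replicates (difference 17.83, SE 3.27, adjusted p = 0.0067, limma). In naive mice the difference was 12.47 (SE 3.73, adjusted p = 0.105), which missed the threshold. Its region 32.6 kb from the 5′ end (chr4:57306055-57306853) was called in both. That region had 48.3, 45.2, 67.5, 52 and 55.2 in AF9-experienced LPS replicates and 0 in all 4 AF9-experienced PBS replicates (difference 53.64, SE 6.74, adjusted p = 9.43e-05, limma). Its naive values were 54.7, 51.2 and 39.7 after LPS and 0 in all 4 PBS replicates (difference 48.55, SE 7.68, adjusted p = 0.00152, limma). It was 0 in all 8 shortened PBS lists, so it entered the test through LPS lists alone, while all 4 AF9-experienced and 3 of 4 naive full PBS lists held a weaker peak there.

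Cdk6 encodes a kinase that drives cells into the cell cycle and that MLL-rearranged leukaemias depend on. Its cluster mean was 13.0, 21.3, 22.7, 20.7 and 28.0 in AF9-experienced LPS replicates, against 6.59, 2.85, 6.90 and 5.01 in AF9-experienced PBS replicates (difference 15.81, SE 3.61, adjusted p = 0.0229, limma). In naive mice the difference was of like size but missed the threshold (14.71, SE 4.11, adjusted p = 0.0807). The AF9-experienced call ended without AF9-experienced LPS 3 or AF9-experienced PBS 2, 3 or 4, with adjusted p up to 0.0778. Of its 7 regions, 3 were called higher in both backgrounds, 1 of them 39.8 kb upstream and the others 154 and 157 kb inside the gene. The calls 39.8 kb upstream and at chr5:3494262 ended in 3 and 11 of the 16 fits that left out 1 replicate in AF9-experienced mice (adjusted p up to 0.140) and in 1 and 8 in naive mice (up to 0.208). The region at chr5:3497252-3498170 had 28.2, 49.9, 46.4, 41.8 and 60.1 in AF9-experienced LPS replicates and 0 in all 4 AF9-experienced PBS replicates (difference 45.29, SE 6.97, adjusted p = 0.000442, limma). Naive replicates had 40.2, 41.5 and 28.9 after LPS and 0 in all 4 PBS replicates (difference 36.87, SE 7.93, adjusted p = 0.0107, limma), and without naive LPS 2 the adjusted p was 0.0599. This region was 0 in every shortened PBS list, so it entered the test through LPS lists alone. In the full lists, all 4 AF9-experienced PBS and 3 of 4 naive PBS replicates held a peak there. The promoter region averaged 26.2 in AF9-experienced LPS against 29.2 in AF9-experienced PBS mice, and was not called (adjusted p = 0.881).

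Of the other clusters called higher in AF9-experienced mice, Lipc, a lipase named for the liver, averaged 36.8 ± 3.80 after LPS, against 22.4 ± 1.95 after PBS (SD, adjusted p = 0.0135, limma), and missed the threshold without AF9-experienced PBS 3 (0.0551). Cd9, a tetraspanin of the cell surface, averaged 28.9 ± 4.87, against 13.3 ± 3.25 (adjusted p = 0.0189), and missed it without AF9-experienced LPS 3, PBS 3 or PBS 4 (up to 0.0731). Its called region lay 21.0 kb inside the gene (chr6:125473271-125474251). It had 53.7, 63.0, 62.9, 62.4 and 60.5 in AF9-experienced LPS replicates, against 0, 0, 4.12 and 0 in AF9-experienced PBS replicates (difference 59.48, SE 8.01, adjusted p = 0.000135, limma). In naive mice its values overlapped, with 31.7, 51.1 and 36.0 after LPS, against 40.3, 0, 0 and 13.8 after PBS (adjusted p = 0.135). The high naive PBS value is that of the shortest list.

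The remaining 5 clusters called higher were close to the threshold. Sema4d, a semaphorin, averaged 25.7 ± 1.56 in AF9-experienced LPS, against 13.3 ± 1.23 in AF9-experienced PBS mice (SD, adjusted p = 0.0332, limma), with no overlap. Chst11, which sulfates chondroitin, averaged 28.4 ± 4.60, against 15.7 ± 2.13 (adjusted p = 0.0418). Rubcnl, an autophagy factor, averaged 28.9 ± 9.37, against 9.96 ± 2.37 (adjusted p = 0.0323). Syne3, a nuclear envelope linker, and Katnal1, a microtubule-severing enzyme, had adjusted p of 0.0413 and 0.0447. Rubcnl lost its call without any of AF9-experienced LPS 3 to 5 or PBS 1 to 4 (up to 0.103), and Sema4d without any of AF9-experienced LPS 2 to 5 or PBS 1 to 4 (up to 0.0981). Chst11, Syne3 and Katnal1 each lost it in 12 of the 16 fits that left out 1 replicate, with adjusted p up to 0.130, 0.0981 and 0.129.

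Sema4d had called regions in both directions. The region 55.8 kb inside the gene (chr13:51737385-51738409) had 56.5, 51.7, 59.5, 52.1 and 50.9 in AF9-experienced LPS replicates, against 34.5, 0, 17.9 and 17.7 in AF9-experienced PBS replicates (adjusted p = 0.00443, limma). Its naive values were 58.7, 58.4 and 52.6 after LPS, against 0, 0, 6.95 and 18.6 after PBS (adjusted p = 0.00174). With lists chosen and ranked by fold enrichment the AF9-experienced difference turned to -1.35 and was not called. The region at its 5′ gene end (chr13:51792322-51794070) moved the other way. It had 10.5, 21.0, 28.9, 43.8 and 18.2 in AF9-experienced LPS replicates, against 54.9, 47.4, 55.0 and 47.5 in AF9-experienced PBS replicates (difference -26.72, adjusted p = 0.0397), and the naive difference was -30.87 (adjusted p = 0.0478). Those calls at the gene end were lost in 10 of the 16 fits that left out 1 replicate, in each background (up to 0.126 and 0.199).

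**Figure D4:**
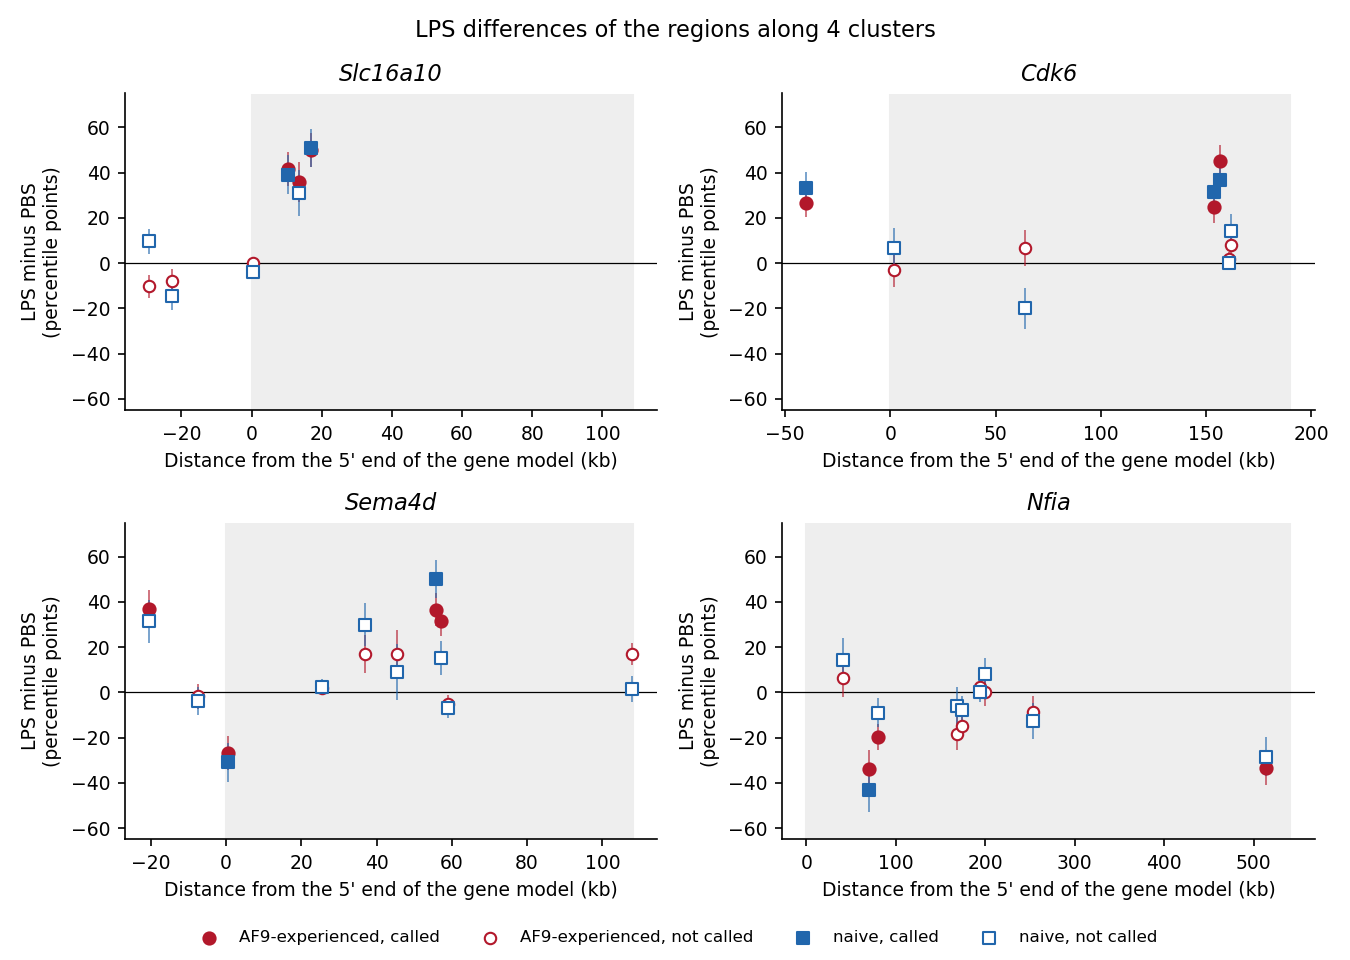
LPS minus PBS difference (percentile points, with SE) of each region along Slc16a10, Cdk6, Sema4d and Nfia, against distance from the 5′ end of the gene model (kb; the gene body is shaded). Red circles are AF9-experienced and blue squares naive mice, and filled symbols were called. At Slc16a10 the 3 regions 10.4 to 16.9 kb inside the gene were higher after LPS while the promoter was near 0, and at Sema4d regions differed in both directions.

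Clusters lower after LPS were Nfia and Ttc28 in AF9-experienced mice and Nfatc2 in naive mice. Nfia, a transcription factor of the nuclear factor I family, had a cluster mean of 19.1, 17.4, 19.2, 21.0 and 25.9 in AF9-experienced LPS replicates, against 35.9, 33.6, 33.6 and 32.4 in AF9-experienced PBS replicates (difference -13.33, SE 2.72, adjusted p = 0.0126, limma). The groups did not overlap, and the call remained without any single replicate. By the share of full lists with a peak the differences of Nfia, Ttc28 and Nfatc2 turned to 0.0278, 0.0417 and 0.0139, and, counting only peaks whose -log10 q reached 5, those of Nfia and Ttc28 to 0.0611 and 0.0417. In naive mice Nfia averaged 22.0 ± 0.522 after LPS, against 31.3 ± 2.60 after PBS (SD, adjusted p = 0.151), also without overlap. Its region 513 kb from the 5′ end (chr4:98091015-98092093) had 0 in all 5 AF9-experienced LPS replicates, against 46.9, 19.4, 29.0 and 37.7 in AF9-experienced PBS replicates (difference -33.24, SE 7.55, adjusted p = 0.0111, limma).

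Ttc28 had a cluster mean of 16.2, 16.3, 20.3, 15 and 8.22 in AF9-experienced LPS replicates, against 35.5, 34, 34.3 and 39.0 in AF9-experienced PBS replicates (difference -20.54, SE 4.28, adjusted p = 0.0142, limma). The groups were far apart, but without AF9-experienced PBS 4 the adjusted p was 0.0554. In naive mice the means were 16.6 ± 3.74 after LPS, against 27.6 ± 10.3 after PBS (SD, adjusted p = 0.309). Nfatc2, a transcription factor activated by calcium through calcineurin, had 10.6, 10.9 and 16 in naive LPS replicates, against 22.8, 42.2, 38.6 and 32.8 in naive PBS replicates (difference -21.62, SE 4.71, adjusted p = 0.0273, limma). Its naive call ended without naive LPS 1 or 2 or naive PBS 2, 3 or 4, with adjusted p up to 0.106. In AF9-experienced mice Nfatc2 averaged 15.6 ± 2.77 after LPS, against 30.8 ± 6.65 after PBS (adjusted p = 0.0558).

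The regions with the smallest adjusted p include several in clusters that were not called as a whole, and each call in this paragraph remained without any single replicate. Prkca, protein kinase C alpha, had a region (chr11:108235107-108235931) with 53.7, 55.6, 54.9, 59.0 and 64.1 in AF9-experienced LPS replicates, against 13.2, 1.45, 0 and 17.2 in AF9-experienced PBS replicates (adjusted p = 0.000135, limma). The naive values were 57.2, 49.8 and 43.2 after LPS and 0 in all 4 PBS replicates (adjusted p = 0.00118). Spry1, an inhibitor of growth factor signalling, had a flank region (chr3:37659503-37660299) with a peak in all 16 lists. It averaged 62.2 ± 6.54 in AF9-experienced LPS, against 18.4 ± 5.39 in AF9-experienced PBS mice (SD, adjusted p = 0.000263, limma), and 59.2 ± 6.49 in naive LPS, against 12.6 ± 5.24 in naive PBS mice (adjusted p = 0.00125). Ptpre, a receptor-type tyrosine phosphatase, had a region (chr7:135588521-135589279) that averaged 69.4 ± 7.72, against 7.70 ± 5.31, in AF9-experienced LPS and PBS mice (adjusted p = 0.000102). Its naive means were 64.1 ± 2.54 after LPS, against 18.4 ± 20.2 after PBS (adjusted p = 0.00595).

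Bcr, the GTPase regulator whose gene is broken in chronic myeloid leukaemia, had a region (chr10:75120979-75121650) with 56.8, 64.4, 54.1, 44.2 and 47.3 in AF9-experienced LPS replicates and 0 in all 4 AF9-experienced PBS replicates (difference 53.34, SE 6.71, adjusted p = 9.43e-05, limma). The naive values were 30.8, 25.1 and 22.0 after LPS, against 0, 9.75, 14.1 and 12.9 after PBS (difference 16.76, SE 7.64, adjusted p = 0.279). The AF9-experienced call remained without any single replicate. The difference between the 2 responses was 36.58, with an unadjusted p of 0.0016 and an adjusted p of 1, so it is not shown to differ between backgrounds.

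The called regions lower after LPS with the smallest adjusted p had low values in LPS replicates. Cyth4, an activator of ARF GTPases, had a region (chr15:78605673-78606754) with 0, 0, 0, 0 and 4.27 in AF9-experienced LPS replicates, against 38.8, 40.8, 41.4 and 40.5 in AF9-experienced PBS replicates (difference -39.55, SE 6.19, adjusted p = 0.00054, limma). It had 0 in all 3 naive LPS replicates, against 53.4, 46.8, 41.8 and 40.4 in naive PBS replicates (difference -45.59, SE 7.05, adjusted p = 0.0012). All 5 AF9-experienced and all 3 naive full LPS lists still held a peak there. Exoc6, a subunit of the exocyst, had a region (chr19:37585205-37586361) that averaged 2.91 ± 3.62 in AF9-experienced LPS, against 47.4 ± 2.87 in AF9-experienced PBS mice (SD, adjusted p = 0.000353, limma), and 0 in all naive LPS, against 45.5 ± 10.2 in naive PBS mice (adjusted p = 0.00182).

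Gng2, a G protein gamma subunit, and Rgs3, a brake on G protein signalling, each had a region of the same kind. The Gng2 region (chr14:19905521-19906196) averaged 11.9 ± 12.1 in AF9-experienced LPS, against 51.3 ± 9.02 in AF9-experienced PBS mice (SD, adjusted p = 0.00262, limma), and 0 in naive LPS, against 47.4 ± 2.82 in naive PBS mice (adjusted p = 0.00277). The Rgs3 region (chr4:62699260-62699900) averaged 12 ± 14.0, against 45.5 ± 5.54, in AF9-experienced LPS and PBS mice (adjusted p = 0.0095). Its naive means were 2.04 ± 3.53 after LPS, against 52.8 ± 2.99 after PBS (adjusted p = 0.00182). Rora, a nuclear receptor, had a region (chr9:68942500-68942972) with 0, 0, 1.37, 0.675 and 0 in AF9-experienced LPS replicates, against 49.3, 47.4, 54.1 and 49.1 in AF9-experienced PBS replicates (difference -49.55, adjusted p = 0.000672). The naive difference of -31.50 missed the threshold (adjusted p = 0.0602), with 1 naive PBS replicate at 0, the shortest list.

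Responses in the backgrounds resembled each other. The LPS differences in AF9-experienced and naive mice, which share no sample, had Pearson r of 0.739 over the 2329 regions and 0.789 over the 324 clusters, and 263 clusters had the same sign in both. These are descriptions over regions and clusters that share replicates, ranking and neighbours. In both backgrounds the LPS lists also had a lower median fold than the PBS lists other than PBS 1. What part this has in the resemblance was not tested. Called higher in both were 50 regions, 36.2% of the AF9-experienced and 64.1% of the naive higher calls. Called lower in both were 16, which is 30.2% and 35.6% of those calls, and 0 regions were called in opposite directions. At least 1 called region in both backgrounds was present in 72 clusters, and in either in 175. No share over all tested regions or all linked genes is given beside these counts.

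**Figure D5:**
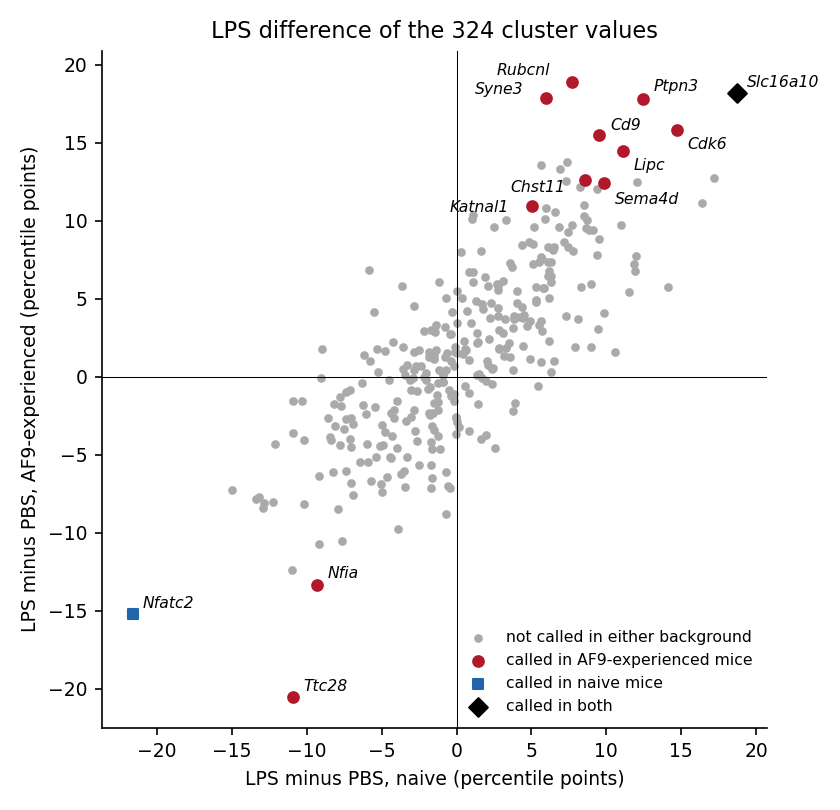
LPS minus PBS difference of each of the 324 clusters (mean percentile of its regions, in percentile points), AF9-experienced mice on the vertical axis against naive mice on the horizontal axis. Colours mark clusters called in AF9-experienced mice, naive mice or both, and named points were called. The points follow a common diagonal (r = 0.789), with Slc16a10 called in both.

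The 12 largest clusters hold 162 regions, and of the 7 genes tied at 11 regions they take the first 4 by symbol. None of them was called as a whole in either background. Their differences ran from -5.47 to 4.21 in AF9-experienced mice (lowest adjusted p = 0.353, limma) and from -9.07 to 3.93 in naive mice (lowest adjusted p = 0.292). At 3.52% and 1.93% of all linked genes called, 12 genes would hold less than 1 call. Single regions passed, 7 higher and 5 lower in AF9-experienced mice (7.41%, beside 5.18% of all tested regions) and 3 higher and 6 lower in naive mice (5.56%, beside 3.22%). Gse1, with 22 regions and 9 of them in all lists, averaged 33.7 ± 1.89 in AF9-experienced LPS, against 29.5 ± 2.61 in AF9-experienced PBS mice (SD, adjusted p = 0.461). Of its regions, 3 were called higher in AF9-experienced mice and 1 lower in naive mice. The region at chr8:120371708 lost its call in 12 of the 16 fits that left out 1 replicate (adjusted p up to 0.139), and the naive one in 2 (up to 0.0665). Its region at chr8:120332490-120333131 had 38, 35.4, 50.3, 61.1 and 46.7 in AF9-experienced LPS replicates, against 0, 0, 0 and 7.74 in AF9-experienced PBS replicates (difference 44.38, SE 9.42, adjusted p = 0.00684, limma). In naive mice it had 51.0, 40.8 and 28.9 after LPS, against 49.5, 0, 0 and 0 after PBS (adjusted p = 0.180), where the high PBS value is that of naive PBS 1.

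Pde4d, over 1280 kb, averaged 22.7 ± 2.47 in AF9-experienced LPS, against 26.4 ± 1.80 in AF9-experienced PBS mice (SD, adjusted p = 0.598, limma), and had 1 called region, lower in AF9-experienced mice. Maml3 and Zmiz1, partners of Notch signalling, each had 1 region lower in AF9-experienced mice. Prkag2, a regulatory subunit of the energy sensor AMPK, had 1 region lower in each background. Arid1b, of the BAF remodelling complex, and Akap13, an anchor for protein kinase A, each had 1 region higher in each background, at different places. Ctif, a translation factor of the nuclear cap-binding complex, had 1 higher in AF9-experienced and 1 lower in naive mice. Cmip had 1 in each direction in AF9-experienced mice, and Elmo1, which activates Rac with Dock proteins, had 1 in each direction in naive mice. Arhgef3, a guanine nucleotide exchange factor, and Ksr1, a scaffold of the ERK pathway, each had 1 region lower in naive mice. Of the calls in this paragraph, those at Pde4d, Maml3, Zmiz1 and naive Akap13 remained without any single replicate. The others ended in some of the 16 fits that left out 1 replicate, from 2 at Arhgef3 to 12 at Prkag2 in AF9-experienced mice and at the lower region of Cmip, with adjusted p up to 0.180.

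Of the gene lists used, those of haematopoietic transcription factors and of chromatin regulators held the most clusters. Of 42 haematopoietic transcription factors, 12 were clusters: Runx1, Runx2, Runx3, Fli1, Erg, Etv6, Meis1, Bcl11a, Zfpm1, Bach2, Tcf7l2 and Foxp1. Of their 88 regions, 4 were higher and 3 lower in AF9-experienced mice (7.95%, beside 5.18% of all tested regions), and 4 higher and 2 lower in naive mice (6.82%, beside 3.22%). None of the 12 was called as a whole. Erg and Zfpm1 had a region higher in both backgrounds, and Bcl11a and Runx3 a region lower in both. The Runx3 region (chr4:135097777-135098993), 22.3 kb upstream, averaged 7.21 ± 10.4 in AF9-experienced LPS, against 37.2 ± 0.485 in AF9-experienced PBS mice (SD, adjusted p = 0.0223, limma). It had 0 in all 3 naive LPS, against 45.6 ± 14.2 in naive PBS replicates (adjusted p = 0.00458). The AF9-experienced call ended without AF9-experienced LPS 2 or 3 or PBS 2, 3 or 4 (adjusted p up to 0.0663).

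Of 21 chromatin regulators of leukaemia, 6 were clusters, among them Dnmt3a, Arid1b and Cbfa2t3. Of their 47 regions, 1 was higher in AF9-experienced mice (2.13%, beside 5.18% of all tested regions), and 1 was higher and 3 lower in naive mice (8.51%, beside 3.22%). Cbfa2t3, a corepressor also called ETO2, had a region (chr8:122665031-122666086) with 47.9, 37.9 and 4.08 in naive LPS replicates, against 74.2, 75.1, 80.2 and 66.9 in naive PBS replicates (difference -44.12, SE 8.63, adjusted p = 0.00591, limma). In AF9-experienced mice it averaged 50 ± 14.3 after LPS, against 69.8 ± 4.28 after PBS (SD, adjusted p = 0.141). Of 29 adhesion and cytoskeleton genes, 4 were clusters (Elmo1, Prex1, Arhgef3 and Fmnl2). Of their 37 regions, 2 were higher in AF9-experienced mice (5.41%), and 2 higher and 2 lower in naive mice (10.8%), beside the same shares of all tested regions. Counts this small are given as a description. Prex1, an activator of Rac, had a region (chr2:166665394-166666544) that averaged 56.8 ± 7.87 in AF9-experienced LPS, against 2.67 ± 4.39 in AF9-experienced PBS mice (adjusted p = 0.000292). Its naive means were 43.2 ± 22.1 after LPS, against 2.02 ± 4.05 after PBS (adjusted p = 0.0131), and that call ended without naive LPS 1 or 2 (adjusted p up to 0.0982).

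Of 18 genes of the MLL-AF9 programme, 2 were clusters, Cdk6 and the homeobox gene Meis1. Of their 14 regions, 3 were higher in each background, and these are the 3 Cdk6 regions described above. That is 21.4%, beside 5.18% of all tested regions in AF9-experienced and 3.22% in naive mice. Meis1 had 7 regions, none of them called, and its cluster difference was 3.01 in AF9-experienced mice (adjusted p = 0.635, limma) and -1.70 in naive mice (adjusted p = 0.877). Of 16 cell cycle and survival genes, Cdk6 and Ccnd3, which encodes cyclin D3, were clusters. Ccnd3 had 8 regions, all inside the gene, and none was called. With the Cdk6 calls, 3 of the 15 regions of this list were called in each background (20%). Of 30 NF-kB and Toll-like receptor genes, the pathway that LPS acts through, Nfkb1 and Mapk14 were clusters, with 13 regions. The called one, 7.69% of them in each background, was a flank region of Nfkb1 (chr3:135696260-135696807). It had 46.9, 44.0, 0.398, 36.6 and 17.0 in AF9-experienced LPS replicates and 0 in all 4 AF9-experienced PBS replicates (adjusted p = 0.0378, limma). In naive mice it had 33.5, 39.5 and 41.4 after LPS and 0 in all 4 PBS replicates (adjusted p = 0.0217). Those calls ended in 9 and 4 of the fits that left out 1 replicate (adjusted p up to 0.101 and 0.079). This region too was 0 in every shortened PBS list and entered the test through LPS lists alone. In the full lists, 3 of 4 AF9-experienced PBS and 2 of 4 naive PBS replicates held a peak there. Of 23 AP-1 and immediate early genes, Fos and Fosb were clusters, with 13 regions and the 1 call at Fosb given above. That is 7.69% in AF9-experienced and 0% in naive mice. Of 24 growth factor and cytokine receptors, the TNF receptor gene Tnfrsf1b was a cluster, and 0 of its 6 regions were called.

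Past exposure to MLL-AF9 cells was compared at each treatment. After PBS, 0 of 2329 cluster regions passed between AF9-experienced and naive mice, beside 0% of all tested regions (limma). At an unadjusted p under 0.05 there were 77 cluster regions, 3.31%, beside 3.2% of all tested regions, and with library weights 6 passed. At the level of clusters 0 of 324 passed. The smallest unadjusted p were at Ldlrad4, a regulator of TGF-beta signalling, and Socs3, an inhibitor of JAK-STAT signalling. Ldlrad4 averaged 18.2 ± 3.23 in AF9-experienced PBS, against 26.5 ± 4.33 in naive PBS mice (SD, difference -8.29, unadjusted p = 0.0179, adjusted p = 1, limma). Socs3 averaged 29.8 ± 1.97, against 37.0 ± 1.05 (difference -7.18, unadjusted p = 0.0212, adjusted p = 1). Among regions, 1 inside Nfic, another nuclear factor I gene (chr10:81413663-81414513), had 35.3, 35.3, 44.8 and 26.9 in AF9-experienced PBS replicates, against 0, 3.32, 8.30 and 0 in naive PBS replicates (difference 32.66, adjusted p = 1). Those groups did not overlap, and the adjusted p is over all 23554 regions.

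After LPS, 1 cluster region passed, beside 0.0127% of all tested regions, and 155 had an unadjusted p under 0.05, 6.66%, beside 5.39% of all. It lies inside Akap13 (chr7:75699641-75700258), with 0 in all 5 AF9-experienced LPS replicates, against 19.1, 43.9 and 25 in naive LPS replicates (difference -29.34, adjusted p = 0.0269, limma). It was also 0 in all PBS replicates of both backgrounds, and it was in 3 lists, the fewest the rule admits, so it entered the test through the naive LPS lists alone. The call ended in 11 of the 16 fits that left out 1 replicate, with adjusted p up to 0.104. No cluster passed, beside 0.0081% of all linked genes. The smallest p was at Tbc1d8, a gene of the TBC domain family, which averaged 39.7 ± 4.36 in AF9-experienced LPS, against 28.1 ± 3.48 in naive LPS mice (SD, difference 11.56, unadjusted p = 0.00155, adjusted p = 0.834, limma). Cmip averaged 24.1 ± 4.98, against 14.5 ± 1.41 (difference 9.53, unadjusted p = 0.0222, adjusted p = 1).

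The difference between the LPS responses of the backgrounds was tested as an interaction. It was called for 0 cluster regions, beside 0% of all tested regions (limma), with 80 at an unadjusted p under 0.05 (3.43%, beside 2.94% of all), and for 0 clusters. The smallest p among clusters was at Socs3. Its mean was 31.6 ± 2.18 in AF9-experienced LPS, against 29.8 ± 1.97 in AF9-experienced PBS mice, and 28.0 ± 4.57 in naive LPS, against 37.0 ± 1.05 in naive PBS mice (SD, interaction 10.76, unadjusted p = 0.017, adjusted p = 1). The Akap13 region had the smallest p among cluster regions (interaction -29.34, unadjusted p = 0.000218, adjusted p = 1). A p that misses the threshold does not show that the responses were alike.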

How the data were processed

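Peak lists of sorted HSPCs were analysed, 1 per labelled biological replicate (16), each placed in its group by its name. Per the submitters' processing notes, FastQC, Trim Galore, BWA, Picard and MACS3 were used with build GRCm38; versions and filters are not given in the sources used here. The labels name both Omni-ATAC and Chromium chemistry. The values the authors deposited are, for every peak, a fold (a ratio over the library's own background), a -log10 p and a -log10 q. They served only to rank and filter peaks inside a list. Depth is unknown from such lists, so no binomial interval is given.

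Values were percentile ranks (100 to 0). Group means over all 16 replicates were estimated with limma 3.58.1 (R 4.3.3; trend and robust empirical Bayes), on all 23554 regions or all 12344 linked genes, with Benjamini-Hochberg adjustment and a threshold of 0.05 within a contrast. Tables were built with Python 3.11.15, pandas 2.3.3 and numpy 2.4.6, and the code was tested on simulated data. P-values measure the spread between samples labelled as biological replicates. Replicate numbers were not treated as pairs, so no block was used in the main fit.

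Named genes are the 12 largest clusters, the called clusters and regions with the smallest adjusted p (4 per contrast and direction), clusters with the most or mixed calls, list members with the most regions, the smallest p where none passed, and examples at the threshold. The last clusters called, Runx1 regions and some regions of list members were named after their values were seen. The members and lists were chosen with earlier results of these data known. Strand came from RefSeq promoter windows, which matched 266 of 324 cluster genes. No genome sequence was used here.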

Additional observations from a re-analysis of the deposited data

Results flagged for a closer look

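In 82 groups of 4 or 5 replicates the highest and lowest replicates were compared with the others (Dixon's test), and 5 groups had a replicate that stood apart; chance gives about 1 in 20. AF9-experienced PBS 1, among the shortest lists, had a peak in 61.5% of cluster regions, against 71.7% to 73.3% in the other AF9-experienced PBS replicates. Naive PBS 1, the shortest list, had a Ttc28 cluster mean of 12.2, against 32.0 to 33.7 in the other naive PBS replicates. At the called Slc16a10 region (chr10:40125198-40125572) naive PBS 4 had 11.3 and the other naive PBS replicates 0. At the Arhgap22 region chr14:33313560-33314079, AF9-experienced LPS 1 had 5.18 and the others of its group 0. At the Cyth4 region AF9-experienced LPS 5 had 4.27 and the others of its group 0. In these last 3 groups a value of 0 means that the shortened list has no peak there, so any peak just inside the list stands apart.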

How the results depend on the processing

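Numbers of cluster regions called for LPS against PBS (AF9-experienced, naive; main values 191 and 123) and of clusters called (12 and 2) depended on how peaks were ranked. With peaks of the same lists ranked by fold they were 98 and 36 regions and 5 and 0 clusters. With lists both chosen and ranked by fold (added after seeing the data) they were 62 and 0 regions and 2 and 0 clusters. With only the stronger part of each list (its length divided by 2) they were 3 and 1 regions and 0 clusters, and the rule then held 10 clusters with 66 regions. With presence in the full lists, or at -log10 q of at least 5, all were 0. Without the 3 shortest lists they were 318 and 221 regions and 26 and 4 clusters. Fitting only the groups compared gave 173 and 14 regions and 9 and 0 clusters. Library weights gave 557 (327 higher, 230 lower) and 446 (242 higher, 204 lower) regions and 59 and 37 clusters. Median fold as a covariate gave 19 and 8 clusters, and Y peaks as a covariate 38 naive regions and 0 naive clusters. Without AF9-experienced LPS 1 and 2, which hold Y peaks (added after seeing the data), 134 regions were higher and 28 lower. Using only regions that are not gene ends gave 25 and 9 clusters, and counting regions with a peak 27 and 20. For these settings the cause was not tested.

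The 1 region called for AF9-experienced against naive after LPS became 0 with these shorter lists, lists chosen by fold, both presence settings, only the groups compared, Y peaks as a covariate and the replicate block, and 2 with library weights, which also called 6 after PBS. Leaving out 1 replicate gave 104 to 243 and 54 to 188 regions, 4 to 19 and 0 to 8 clusters, and 0 to 5 regions for AF9-experienced against naive after LPS. Of the calls, 86 of 191 and 41 of 123 regions and 3 of 12 and 0 of 2 clusters were made in every such fit. The rule gave 602 clusters at 5 or more regions, 90 at 8 or more, 267 with links within 25 kb, 113 with a peak in at least 8 lists and 411 by fold; at 50% overlap the region counts stayed at 191 and 123.

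Deviations of same-numbered replicates had correlations of -0.215 to 0.231. The same number was the best match only between the PBS groups of the backgrounds, at replicates 1 (0.231) and 4 (0.180). Whether the numbers mark a shared batch was not tested. The replicate block gave 159 and 84 regions and 3 and 1 clusters.

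Of 140 named calls, 90 missed the threshold with peaks of the same lists ranked by fold, 66 with only the groups compared, 60 with Y peaks as a covariate, 48 with the replicate block, 13 without the 3 shortest lists, 10 with median fold as a covariate and 0 with library weights. With lists chosen by fold 96 of the 115 that could be matched missed it, and with the shorter lists 51 of 62. Leaving out 1 replicate ended 2 to 46 of them. The sign reversed as follows. By lists chosen by fold, the Sema4d region 51737385 in AF9-experienced mice was -1.35. By presence in full lists (share of lists, LPS minus PBS) the Nfia region 97657557 was 0.25 and the clusters Nfatc2 (naive) 0.0139, Nfia 0.0278 and Ttc28 0.0417. At -log10 q of at least 5, the naive regions of Ksr1, Arhgap22, Ctif, Exoc6, Ablim1 and Prkag2 and the AF9-experienced region of Cmip were each 0.25, that of Nfia 0.05, and the clusters Nfia 0.0611 and Ttc28 0.0417. Presence had little room to fall after LPS. In full lists, 53 of 53 AF9-experienced and 39 of 45 naive regions called lower had a peak in every LPS list of the same background. A positive share of lists arises where PBS lists lack the peak, and is not a rise in rank after LPS.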
